A study of Mus musculus with 157 samples.

Results

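The HoxD cluster is a row of 9 homeobox genes on mouse chromosome 2, and its RNA polymerase II (Pol II) was followed here in embryonic stem (ES) cells treated with retinoic acid (RA). The members were taken by name, as the rows whose gene symbol is Hoxd1, Hoxd3, Hoxd4, Hoxd8, Hoxd9, Hoxd10, Hoxd11, Hoxd12 or Hoxd13. They make up 9 of 23643 genes in the table of total Pol II at start sites, and 12 of its 33687 transcripts. All 9 genes passed the filter on low counts in each of the 4 tables.

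The cells were E14, an established mouse ES cell line, kept on gelatin with serum and leukemia inhibitory factor, and every library came from this line. Untreated cells (0 h) were compared with cells given 1 uM RA for 2, 4, 6, 24, 48 or 72 h. Pol II was measured by chromatin immunoprecipitation and sequencing (ChIP-seq) with antibodies to its N-terminal domain (NTD, all Pol II), to serine 5 phosphate (Ser5p) and to serine 2 phosphate (Ser2p) of its C-terminal repeat. NTD and Ser5p reads were counted within 1 kb of each transcription start site (TSS), and NTD and Ser2p reads over gene bodies. NTD had 17 libraries, with 2 at 0, 2, 24 and 72 h and 3 at 4, 6 and 48 h, and Ser5p and Ser2p had 18 each, with 3 at 2 h.

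Hox proteins are transcription factors that give cells their position along the head to tail axis. The genes of a Hox cluster lie in the order in which they are used: in embryos and in RA-treated stem cells, genes at the 3′ end, with low group numbers, are switched on before and further forward than genes at the 5′ end, with high numbers. In ES cells these genes are known to be held silent by Polycomb group proteins while their promoters carry poised Pol II. Poised Pol II is rich in Ser5p, which is laid down as Pol II leaves the promoter, and poor in Ser2p, which builds up during elongation.

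In build mm10 (GRCm38.p6 in RefSeq) all 9 genes are transcribed from the plus strand of chromosome 2, between chr2:74668225 at the start of Hoxd13 and chr2:74765142 at the end of Hoxd1. Hoxd13 lies nearest to Evx2 and is the 5′ end of the cluster. The annotated starts follow the group numbers with 1 exception: the Hoxd3 gene begins at 74711993 and spans 36279 bases, so it starts before Hoxd4, which begins at 74721978, and contains it. Reads over the Hoxd4 body therefore also count for Hoxd3. The start of the long non-coding RNA gene Haglr at 74762896, on the minus strand, is so close to that of Hoxd1 at 74762980 that their windows hold nearly the same reads. Mir10b at 74726070, Hoxd3os1 and Gm38462 also lie inside or beside member genes, and ChIP reads carry no strand.

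The promoters differed in their content of CG dinucleotides, the bases that mark CpG islands, and those of 4 genes are shown. Whether CG content bears on the Pol II levels below was not tested. In the RefSeq table of 32851 promoter windows of 300 bases the median window held 7 CG dinucleotides. The window of Hoxd13 held 37, more than 94.4% of the windows, and that of Hoxd1 held 29, more than 87.1%. The window of Hoxd4 held 4, more than 31.4%. Between these lay Hoxd10 with 22, Hoxd3 and Hoxd9 with 20, Hoxd12 with 13 and Hoxd8 with 6, and the 2 annotated starts of Hoxd11 had 4 and 25. The 250 bases just before each start are printed 5′ to 3′ with each CG in capitals, from chr2:74667975-74668224, chr2:74697513-74697762, chr2:74721728-74721977 and chr2:74762730-74762979 of the plus strand.
Hoxd13: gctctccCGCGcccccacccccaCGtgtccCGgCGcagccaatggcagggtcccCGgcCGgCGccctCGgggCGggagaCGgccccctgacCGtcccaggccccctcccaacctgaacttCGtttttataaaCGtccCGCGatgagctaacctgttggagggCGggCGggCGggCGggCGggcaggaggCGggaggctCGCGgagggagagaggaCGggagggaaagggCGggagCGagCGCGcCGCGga
Hoxd9: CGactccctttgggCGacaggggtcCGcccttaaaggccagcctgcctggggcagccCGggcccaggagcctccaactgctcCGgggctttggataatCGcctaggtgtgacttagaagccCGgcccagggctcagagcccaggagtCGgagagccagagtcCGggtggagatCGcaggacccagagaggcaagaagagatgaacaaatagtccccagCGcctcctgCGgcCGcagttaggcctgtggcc
Hoxd4: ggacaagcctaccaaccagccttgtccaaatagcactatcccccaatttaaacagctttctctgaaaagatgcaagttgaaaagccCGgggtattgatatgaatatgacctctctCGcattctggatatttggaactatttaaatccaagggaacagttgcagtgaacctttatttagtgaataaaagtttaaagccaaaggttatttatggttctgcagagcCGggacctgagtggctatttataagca
Hoxd1: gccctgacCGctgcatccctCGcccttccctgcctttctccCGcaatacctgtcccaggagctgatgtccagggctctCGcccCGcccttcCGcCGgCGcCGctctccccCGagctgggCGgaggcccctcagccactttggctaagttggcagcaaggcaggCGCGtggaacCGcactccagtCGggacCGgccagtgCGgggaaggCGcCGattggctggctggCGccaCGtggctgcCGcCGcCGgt
The Hoxd13 stretch holds 31 CG dinucleotides in 250 bases and is 74.4% G or C. The Hoxd1 stretch holds 24, that of Hoxd9 holds 13 and that of Hoxd4 holds 3.

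Motif matches were counted in the 300-base windows on both strands, as letters only. Direct repeats of AGGTCA, the element bound by the RA receptor, with 1, 2 or 5 bases between the copies were in 0 of the 10 HoxD windows, and in 0.0396%, 0.00913% and 0.00913% of all windows. A single AGGTCA was in 4 HoxD windows (Hoxd10, Hoxd8, Hoxd4 and Hoxd3) against 16.3% of all windows. CCAAT was in 7 of 10 against 37.4%, and TATAAA was in 2 (Hoxd13 and Hoxd4) against 13.6%. TTTATNG, a core bound by Cdx and posterior Hox proteins, was in the Hoxd4 window alone, with 3 matches, against 10.9% of all windows.

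Total Pol II at the 9 promoters was low before RA. Levels are given in CPM, the reads of a window scaled to the reads of all windows of the library after TMM normalization. At 0 h the mean NTD level of the members ran from 6.27 CPM at Hoxd9 to 9.84 CPM at Hoxd11, below the median transcript at 14.5 CPM. These levels stood between the 19.2 and 39.2 percentiles of all transcripts tested. Ser5p was higher: at 0 h Hoxd13 had 51.3 CPM, Hoxd11 43.5 and Hoxd10 40.5, at the 88.3, 84.2 and 82.1 percentiles. Hoxd4 was the lowest at 10.2 CPM and the 19.8 percentile, with Hoxd12 at 21.9, Hoxd3 at 22.5, Hoxd1 at 24.6, Hoxd8 at 31.7 and Hoxd9 at 33.6 CPM. The order of neighbours is not firm, because the 2 untreated Ser5p libraries differed more than many of these steps.

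The ratio of Ser5p to NTD set the members apart from most transcripts in untreated cells. The log2 ratio of the group means, with 0.5 CPM added to each, was 2.91 at Hoxd13, 2.73 at Hoxd11, 2.34 at Hoxd9 and 2.20 at Hoxd10. The median of 31860 transcripts was 0.20. Hoxd13 was at the 99.9 percentile and Hoxd10 at the 99.2 percentile of these ratios. Hoxd8 followed at 1.98, Hoxd3 at 1.75, Hoxd12 at 1.35 and Hoxd1 at 1.30, with 94.7 the lowest percentile among these 8 genes. Hoxd4 had a ratio of 0.49 at the 64.9 percentile. The tables of the antibodies were scaled separately, so a ratio ranks genes within a time and has no fixed zero.

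Ratios at different times are given side by side, with no spread or test of their own, beside the median of all transcripts at each time. That median was 0.20 at 0 h, 0.16 at 48 h and 0.15 at 72 h. At 6 h the log2 ratio was 1.04 at Hoxd13, 1.49 at Hoxd9 and 2.16 at Hoxd11. At 24 h it was 0.69, 1.48 and 1.59 in the same order, and at 48 h 0.06, 0.16 and 0.45. At 48 h Hoxd12 had the highest ratio of the members, 0.94, and Hoxd1 the lowest, -0.14. At 72 h the Hoxd13 ratio was 1.08, that of Hoxd9 0.10 and that of Hoxd1 -0.21.

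**Figure D1:**
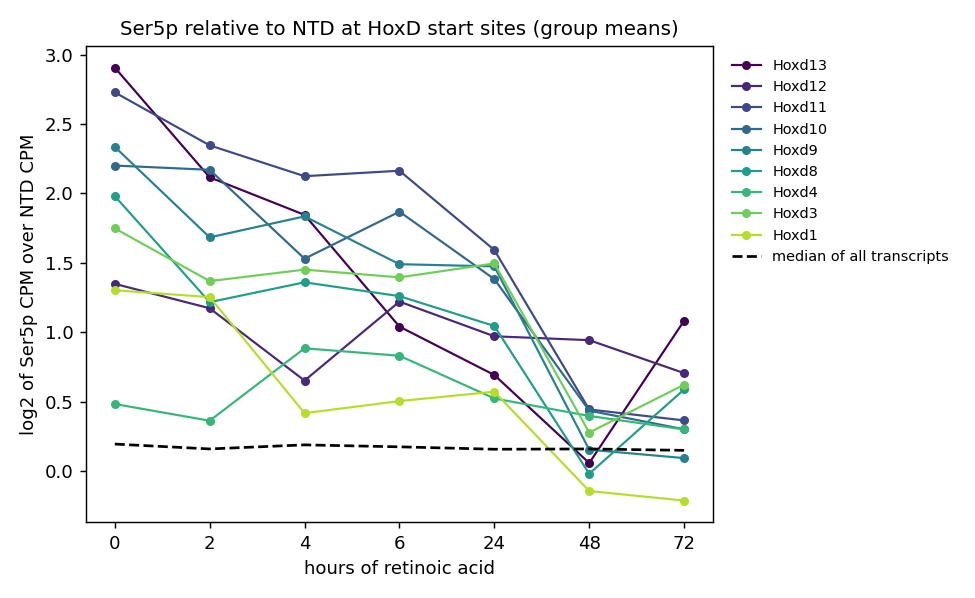
Log2 ratio of mean Ser5p to mean NTD level at the TSS (0.5 CPM added) for each of the 9 HoxD genes against hours of RA, with the median of all transcripts for comparison. The ratio of Hoxd13 stood at 2.91 at 0 h and at 0.06 at 48 h, and that of Hoxd4 began at 0.49.

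Calls of lower Ser5p at HoxD promoters came at 24, 48 and 72 h. At 48 h the log2 changes ran from -1.79 at Hoxd13 to -0.22 at Hoxd4. Differences between genes were not tested. Most of these calls rest on 1 untreated library. All 6 times of RA were first tested together by edgeR's quasi-likelihood F test, with p-values adjusted by Benjamini-Hochberg over all transcripts and a threshold of 0.05. Over time Ser5p changed at 7 of 9 genes, against a background of 14.5% of 32774 transcripts: Hoxd13 (adjusted p = 3.35e-05), Hoxd11 (0.000107), Hoxd10 (0.00021), Hoxd3 (0.0135), Hoxd12 (0.0173), Hoxd8 (0.0188) and Hoxd9 (0.0201). Hoxd4 and Hoxd1 did not pass. By single times against 0 h, 0 members passed at 2 h (background 0.0305%), 4 h (0.0153%) and 6 h (0.0549%), by edgeR or DESeq2. An unadjusted edgeR p under 0.05 was found for 0, 7 and 5 members, and for 2157, 2421 and 3827 of the 32774 transcripts. At 24 h 3 fell, against 3.14% of transcripts, at 48 h 7 fell, against 5.37%, and at 72 h 6 fell, against 3.87%. The median log2 change of the 9 genes was -0.70 at 4 h, -0.62 at 6 h and -0.87 at 24 h. The calls therefore do not date the start of the change. At 48 h the median of the 9 genes was -1.14, and that of all transcripts was -0.07.

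Ser5p results against 0 h rest on 2 untreated libraries that stood apart at these genes. Summed over the 9 promoters, Ser5p was 198 CPM in replicate 1 and 362 CPM in replicate 4. It was 308, 157 and 246 CPM at 2 h, 236, 109 and 162 at 4 h, 151, 130 and 209 at 6 h, 122 and 159 at 24 h, 123, 108 and 117 at 48 h, then 111 and 113 at 72 h. The sums at 48 and 72 h were below both untreated libraries, while those at 2 and 4 h spread across them. When 0 h replicate 4 was left out, the number of genes that fell was 0 at 24 h, 1 (Hoxd13) at 48 h and 0 at 72 h, and over all transcripts the share called in either direction went from 12.2% to 2.57% at 48 h. Calls over all transcripts were also fewer at 24 and 72 h, so a call lost in this fit does not show that a change was absent. The 48 h changes without replicate 4 ran from -1.15 at Hoxd13 to 0.03 at Hoxd1, beside a median of -0.03 over all transcripts. At 24 h they ran from -0.84 at Hoxd13 to -0.05 at Hoxd9, beside a median of -0.04. With 0 h replicate 1 left out instead, the 48 h changes ran from -2.26 at Hoxd13 to -0.13 at Hoxd4, beside a median of -0.02. With all libraries and the replicate number as a block, 0 members passed at 24 h and 3 at 48 h. The 24 h count was also 0 when either 24 h library was left out, the 72 h count was 2 (Hoxd13 and Hoxd11) when 72 h replicate 3 was left out and 4 when replicate 1 was, and the count over all times was 4 without 48 h replicate 2.

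**Figure D2:**
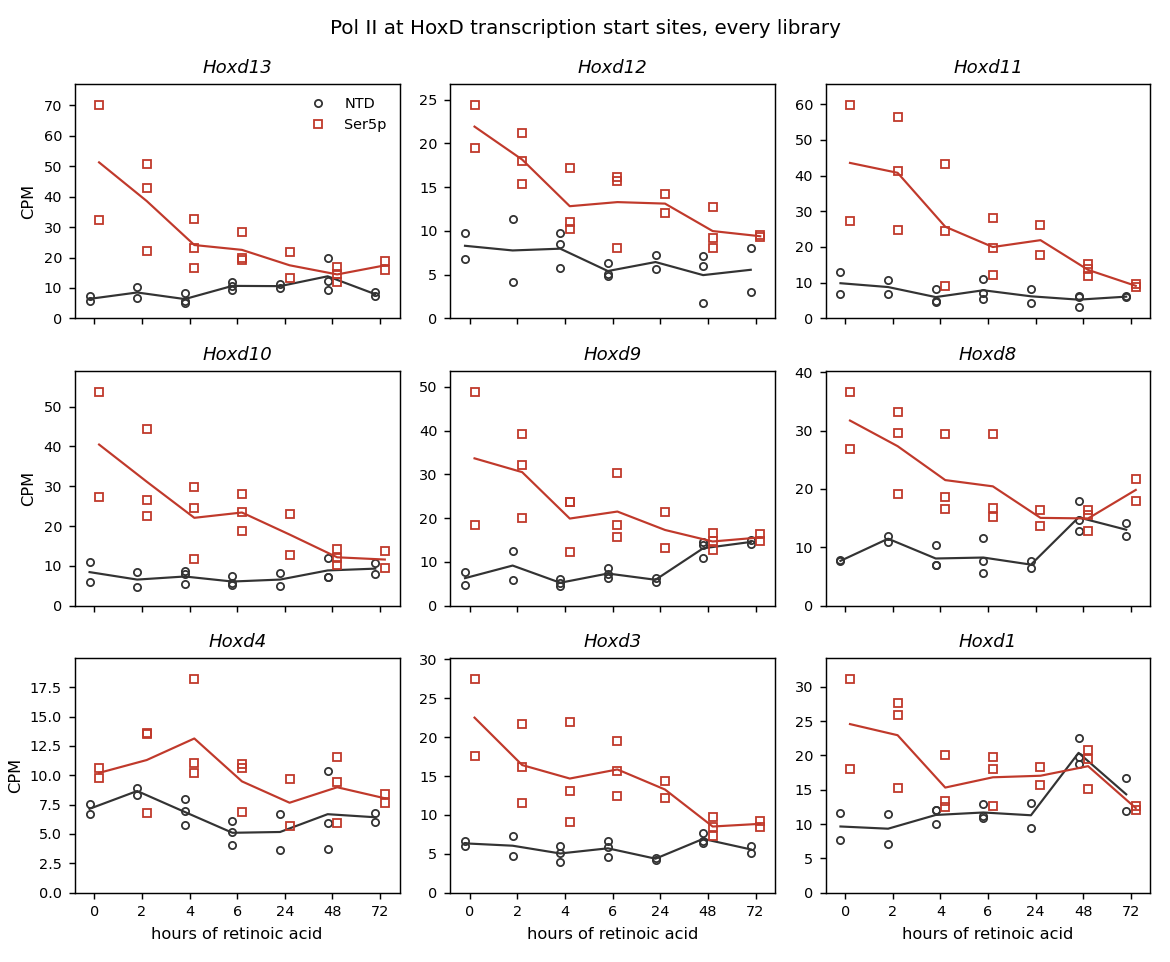
NTD and Ser5p levels at the TSS (CPM) of the 9 HoxD genes in every library (points) against hours of RA, spaced evenly, 1 panel per gene with its own scale, with lines through the means. Ser5p at Hoxd13 ran from 32.4 and 70.1 CPM at 0 h to 11.8 to 16.9 CPM at 48 h, and its NTD level stayed between 4.98 and 19.8 CPM throughout.

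Hoxd13, the gene of digits and genital bud and the last of the cluster to be used, had the deepest Ser5p. It counted 32.4 and 70.1 CPM at 0 h, 50.9, 22.1 and 42.7 at 2 h, 32.6, 16.6 and 23.1 at 4 h, 19.3, 19.7 and 28.5 at 6 h, 13.2 and 21.7 at 24 h, 14.6, 16.9 and 11.8 at 48 h, then 15.8 and 19 at 72 h. Each library from 6 h on was below both untreated libraries. Here and below, the share of all transcripts whose libraries lay apart from the untreated ones in this way was not counted. With 2 untreated libraries such a gap can arise without a change, so these statements only describe the values. The log2 change was -1.48 ± 0.31 (SE) at 24 h (edgeR, adjusted p = 0.00749), -1.79 ± 0.30 at 48 h (6.96e-05) and -1.52 ± 0.33 at 72 h (0.00177). At 48 h it was -1.15 without 0 h replicate 4 (edgeR, adjusted p = 0.0460), the highest p of its alternatives, which reached down to 1.38e-06.

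Hoxd12 and Hoxd11, which act with Hoxd13 in the limb, fell as well. Hoxd12 had 19.4 and 24.4 CPM of Ser5p at 0 h, 12.7, 9.16 and 8.03 at 48 h, then 9.27 and 9.50 at 72 h, with all libraries from 4 h on below the untreated ones. Its log2 change at 48 h was -1.14 ± 0.29 (edgeR, adjusted p = 0.00672). Hoxd11 had 27.3 and 59.8 CPM at 0 h, 43.3, 9.12 and 24.6 at 4 h, 17.8 and 26 at 24 h, 15.2, 13.7 and 11.8 at 48 h, then 8.73 and 9.50 at 72 h. Of the 4 h libraries of Hoxd11 1 lay between the untreated ones and the others below both, and those from 24 h on lay below. Its log2 change was -1.65 ± 0.36 at 48 h (edgeR, adjusted p = 0.00149) and -2.21 ± 0.44 at 72 h (0.000669), the lowest value of any member and time. Leaving out 0 h replicate 4 gave 48 h values of -0.98 (adjusted p = 0.128) at Hoxd12 and -1.01 (0.180) at Hoxd11, in each gene the highest p of the alternatives, whose lowest were 0.00506 and 6.14e-05.

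Hoxd10 and Hoxd9, the genes of the middle of the cluster that pattern the lumbar spinal cord and hindlimb, moved in the same direction. Hoxd10 had 27.3 and 53.7 CPM of Ser5p at 0 h, 12.7 and 23 at 24 h, 10.3, 11.9 and 14.2 at 48 h, then 13.6 and 9.50 at 72 h. Its log2 change was -1.10 ± 0.32 at 24 h (edgeR, adjusted p = 0.0344), -1.69 ± 0.31 at 48 h (0.000246) and -1.78 ± 0.36 at 72 h (0.000874). Hoxd9 had 18.5 and 48.8 CPM at 0 h, 13.2 and 21.3 at 24 h, 12.7, 14.7 and 16.5 at 48 h, then 16.4 and 14.8 at 72 h. Both genes lay below the untreated range at 48 and 72 h, Hoxd9 by a small margin against replicate 1. The change of Hoxd9 was -1.14 ± 0.32 at 48 h (edgeR, adjusted p = 0.0129) and -1.07 ± 0.36 at 72 h (0.0497). With 0 h replicate 4 left out, the 48 h change was -1.15 at Hoxd10 (adjusted p = 0.0676) and -0.32 at Hoxd9 (0.723), where the alternatives began at 1.17e-05 and 0.000186.

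Hoxd8 and Hoxd3 fell, while Hoxd4, which lies between them by group number, did not pass at any time. Hoxd8 had 26.8 and 36.6 CPM of Ser5p at 0 h, 13.7 and 16.3 at 24 h, 16.4, 12.8 and 15.6 at 48 h, then 18 and 21.6 at 72 h. Its change was -1.04 ± 0.30 at 24 h (edgeR, adjusted p = 0.0332) and -1.08 ± 0.28 at 48 h (0.00695), and at 72 h -0.66 ± 0.30 did not pass (0.175). Hoxd3, a gene of the neck vertebrae, had 17.6 and 27.4 CPM at 0 h, 9.71, 7.33 and 8.51 at 48 h, then 9.27 and 8.44 at 72 h. From 24 h on the Hoxd8 and Hoxd3 libraries were all below the untreated ones. The change of Hoxd3 was -1.39 ± 0.32 at 48 h (edgeR, adjusted p = 0.00259) and -1.32 ± 0.36 at 72 h (0.0128). In the fit lacking 0 h replicate 4 the 48 h values were -0.85 at Hoxd8 (adjusted p = 0.160) and -1.05 at Hoxd3 (0.129), against lowest values of 0.00650 and 0.00153 among the alternatives.

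Hoxd4, a hindbrain gene known for its response to RA, had 10.6 and 9.76 CPM of Ser5p at 0 h, 18.2, 10.2 and 11 at 4 h, 11.5, 5.95 and 9.45 at 48 h, then 7.64 and 8.44 at 72 h. The 48 h libraries lay on both sides of the untreated ones, and the change was -0.22 ± 0.36 (edgeR, adjusted p = 0.745). Hoxd1, the 3′ gene, which acts in sensory neurons, had 18.1 and 31.1 CPM at 0 h, 19.4, 15.1 and 20.8 at 48 h, then 12 and 12.7 at 72 h. The 48 h libraries of Hoxd1 overlapped the untreated range, with a change of -0.39 ± 0.27 (edgeR, adjusted p = 0.382), and those at 72 h lay below it, with -0.96 ± 0.32 (0.0528).

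Across the 9 genes, ranked by annotated start from Hoxd1 to Hoxd13, the Ser5p change against 0 h tended to be more negative toward Hoxd13. Spearman's rho was -0.48 at 2 h, -0.83 at 4 h, -0.88 at 6 h, -0.73 at 24 h, -0.78 at 48 h and -0.67 at 72 h. These 6 values share the same untreated libraries, and the genes share libraries, so they describe the pattern and carry no p. In the contrasts without the untreated libraries rho had no common sign, with 0.12 from 6 to 24 h, -0.55 from 24 to 48 h and 0.35 from 48 to 72 h. The order was not strict: at 48 h Hoxd12 (-1.14) had a smaller fall than Hoxd3 (-1.39), and at 72 h Hoxd8 (-0.66) lay nearer 0 than Hoxd1 (-0.96). For NTD at start sites rho was -0.08 at 48 h and -0.30 at 72 h.

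**Figure D3:**
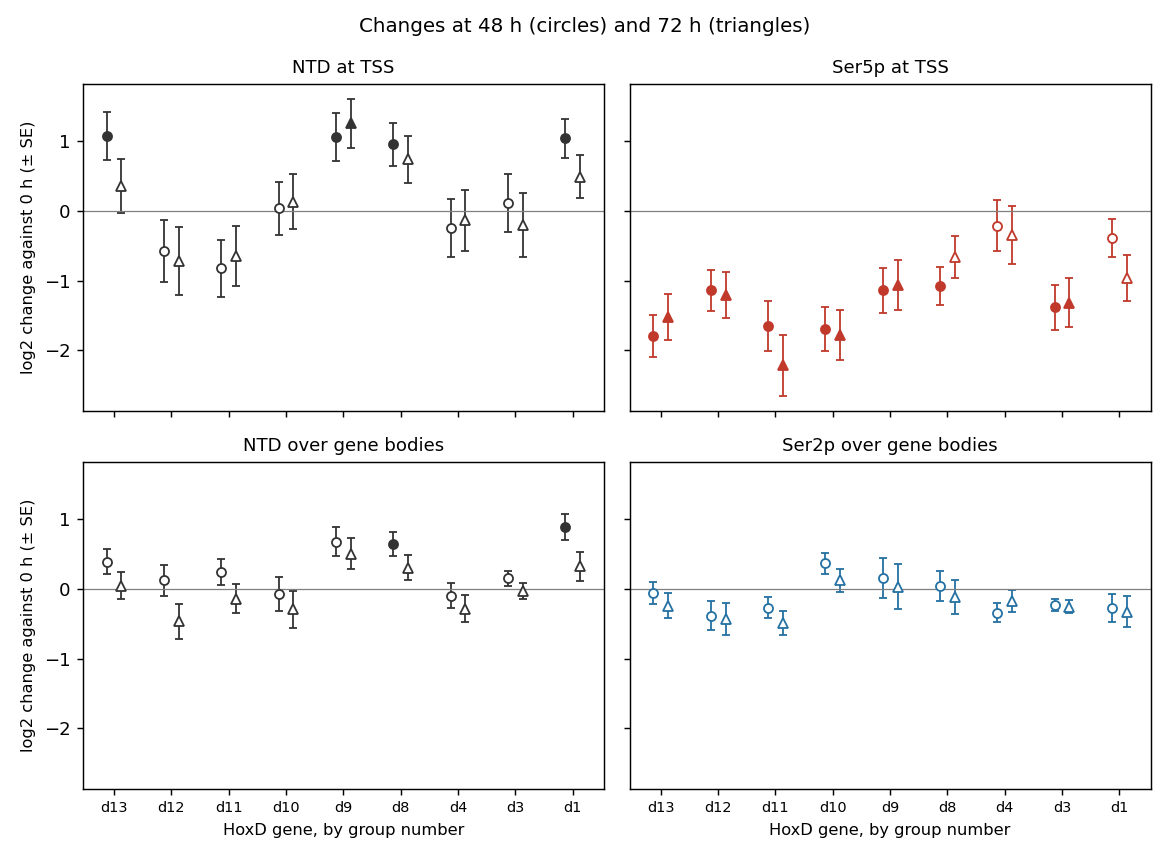
Log2 change against 0 h at 48 h (circles) and 72 h (triangles) for the 9 HoxD genes in order of group number, in 1 panel per table, with bars of 1 SE and filled marks where the adjusted p was under 0.05. At 48 h Ser5p at the TSS ran from -1.79 at Hoxd13 to -0.22 at Hoxd4 and NTD at the TSS from -0.83 at Hoxd11 to 1.07 at Hoxd13.

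Contrasts between neighbouring times do not use the untreated libraries. For Ser5p, 0 members passed from 6 to 24 h (background 0.0702%), from 24 to 48 h (0.513%) or from 48 to 72 h (0.0153%), by edgeR or DESeq2. At an unadjusted edgeR p under 0.05 there were also 0 members, where 3770, 3382 and 1782 of 32774 transcripts passed. The largest step was at Hoxd11 from 24 to 48 h, -0.73 ± 0.38 (edgeR, adjusted p = 0.517). In the authors' deposited table Ser5p at Hoxd13 changed by -0.61 at 48 h with an adjusted p of 0.0430. The same deposited table gives -0.75 (0.0401) for Hoxd10 and -0.84 (0.0251) for NR_073086 of Hoxd11 at 72 h. Other rows of the authors' deposited table did not pass, among them Hoxd13 at 72 h (-0.45, 0.124), Hoxd10 at 48 h (-0.59, 0.105), Hoxd9 at 48 h (-0.31, 0.631) and NM_008273 of Hoxd11 at 48 h (-0.47, 0.404). At 24 h, where Hoxd10 was called above with -1.10, the authors' deposited table gives 0.045, and it lists no adjusted p for any member at that time. Over the transcripts used here for Ser5p, the deposited 24 h values ran from -0.17 at Hoxd13 to 0.19 at Hoxd1.

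Total Pol II moved the other way at some of the same promoters. NTD at the TSS changed over time at 3 of 9 genes by the F test, Hoxd9 (edgeR, adjusted p = 0.00183), Hoxd1 (0.0231) and Hoxd8 (0.0251), where 14.9% of 31868 transcripts did. At 48 h 4 members rose, where 4.66% of transcripts rose, and at 72 h 1 rose, where 5.66% did. At 2, 4, 6 and 24 h 0 members passed by edgeR or DESeq2, against backgrounds of 0.32%, 0.709%, 0.728% and 1.52%. An unadjusted edgeR p under 0.05 was found for 0, 0, 1 and 1 members, and for 1240, 1720, 2367 and 4536 of the 31868 transcripts. That member was Hoxd13 at both 6 and 24 h. From 6 to 24 h (0.069%), 24 to 48 h (1.15%) and 48 to 72 h (0.543%) 0 members passed as well. Here 0, 3 and 2 members, and 2332, 3999 and 2375 of all transcripts, had an unadjusted edgeR p under 0.05. The median log2 change of the 9 genes at 48 h was 0.11 and that of all transcripts was -0.03. In a population a higher level can mean more cells with Pol II at the gene or more Pol II per cell, which cannot be told apart.

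Hoxd1 had 7.75 and 11.6 CPM of NTD at 0 h, 7.17 and 11.5 at 2 h, 9.95, 12 and 12 at 4 h, 11, 11.2 and 13 at 6 h, 9.45 and 13.1 at 24 h, 22.6, 18.8 and 19.8 at 48 h, then 16.7 and 11.9 at 72 h. In reads these were 15 and 29 at 0 h and 34, 50 and 23 at 48 h, so each value rests on few reads. The 48 h libraries were above all earlier ones, and the change was 1.04 ± 0.28 (edgeR, adjusted p = 0.0103). Haglr, whose window shares most of these reads, changed by 1.23 ± 0.29 (0.00257), from a mean of 8.34 CPM to 20.1 CPM. The authors' deposited table gives 48 h as the hour of the first increase of Hoxd1, with a log2 change of 0.77 and an adjusted p of 0.0539.

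Hoxd9 was the member called at both 48 and 72 h. It had 7.75 and 4.78 CPM of NTD at 0 h, 5.40 and 6.39 at 24 h, 14.6, 10.9 and 13.8 at 48 h, then 14.1 and 15 at 72 h. All libraries of 48 and 72 h were above those of 0 and 24 h, though 1 library of 2 h reached 12.5 CPM, with a change of 1.05 ± 0.35 at 48 h (edgeR, adjusted p = 0.0420) and 1.25 ± 0.35 at 72 h (0.0160). Hoxd8, its 3′ neighbour, had 7.75 and 7.57 CPM at 0 h, 17.9, 12.8 and 14.6 at 48 h, then 14.1 and 11.9 at 72 h. The 48 h change of Hoxd8 was 0.95 ± 0.31 (edgeR, adjusted p = 0.0446), and its 72 h change of 0.73 ± 0.34 did not pass (0.193). Hoxd13 had 7.23 and 5.58 CPM at 0 h, 6.57 to 10.4 at 2 h and 4.98 to 8.33 at 4 h. It had 9.26 to 12.1 CPM at 6 h, 9.93 to 11.3 at 24 h, 9.30, 12.4 and 19.8 at 48 h, then 7.37 and 8.52 at 72 h. Its 6 and 24 h libraries were above the untreated ones too, without a call, so the 48 h call does not date the start of the change. Its libraries at 48 h were all above the untreated ones but spread widely, with a change of 1.07 ± 0.34 (edgeR, adjusted p = 0.0359).

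These NTD calls at 48 h depended on single libraries. The count was 1, Hoxd1, when 0 h replicate 4 was left out, when 48 h replicate 3 was (the NTD library with the fewest reads), and with DESeq2. It was 1, Hoxd9, when 0 h replicate 1 was left out, and 2, Hoxd13 and Hoxd1, when 48 h replicate 1 was. The 72 h call of Hoxd9 was lost when 0 h replicate 4 or 72 h replicate 3 was left out, and with DESeq2. Over all times the count was 1, Hoxd9, when 48 h replicate 1 or 3 was left out, and 2 when 48 h replicate 2 or 24 h replicate 3 was. Over the alternatives the adjusted p at 48 h ran from 0.00308 to 0.156 for Hoxd1, from 0.0130 to 0.437 for Hoxd9, from 0.0216 to 0.242 for Hoxd8 and from 0.0115 to 0.313 for Hoxd13.

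NTD at the other 5 genes did not pass the test at any time. At 48 h the changes were -0.83 ± 0.41 at Hoxd11, -0.57 ± 0.44 at Hoxd12, -0.25 ± 0.42 at Hoxd4, 0.04 ± 0.38 at Hoxd10 and 0.11 ± 0.41 at Hoxd3. These are wide errors, and a p that misses the threshold does not show that the level stayed the same. Hoxd11 has a pair of annotated transcripts that went opposite ways. The one used for NTD, NR_073086, went from 12.9 and 6.78 CPM at 0 h to 3.32, 6.38 and 6.02 CPM at 48 h, all below the untreated libraries. The other, NM_008273, went from 6.71 and 5.58 CPM to 9.30, 9.01 and 11.2 CPM, all above them, with a change of 0.66 ± 0.39 (edgeR, adjusted p = 0.348), so neither passed and the NTD direction of Hoxd11 depends on the transcript. Hoxd3 stayed between 3.98 and 7.74 CPM in all 17 libraries.

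Whether Ser5p moved otherwise than total Pol II was tested in 1 model over both antibodies, as the interaction of antibody and time. Hoxd13 (edgeR, adjusted p = 0.0177) and Hoxd9 (0.0422) passed over all times together, 2 of 9 members where 0.232% of 32820 transcripts did. At both genes Ser5p fell and NTD rose at 48 h. Next came Hoxd11 (0.0787), Hoxd8 (0.0923), Hoxd1 (0.198) and Hoxd10 (0.209). In the fit with the replicate number as a block 0 members passed over all times. At 72 h alone 0 members passed, where 0.0884% of transcripts did: the Ser5p change minus the NTD change was -2.60 ± 0.69 at Hoxd11 (edgeR, adjusted p = 0.0998), -2.37 ± 0.55 at Hoxd9 (0.0561), -1.95 ± 0.57 at Hoxd10 (0.169) and -1.93 ± 0.57 at Hoxd13 (0.174). Over all times 0 members passed when the 0 h replicate 4 of either antibody was left out, and 1, Hoxd13, when 72 h replicate 3 of either or 72 h replicate 1 of Ser5p was. At 72 h the count was 5 when Ser5p 0 h replicate 1 was left out.

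Pol II levels over gene bodies are given for the members, and were not set against those of other transcripts. These levels are the deposited values in FPKM, which are scaled by depth and length and so can be compared between genes. At 0 h NTD ran from 0.713 FPKM in 1 library of Hoxd3 to 1.16 in 1 library of Hoxd10, and Ser2p from 0.653 in 1 library of Hoxd9 to 1.64 in 1 library of Hoxd1. Hoxd3, with its long span, held 256 to 479 NTD reads in each library, and Hoxd1, with the shortest, held 23 to 65.

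NTD over the body rose at the 2 genes Hoxd8 and Hoxd1 at 48 h, where 1.72% of 31843 transcripts rose. Hoxd1 had 1.02 and 1.07 FPKM at 0 h, 0.803 and 1.11 at 2 h, 1.06, 1.15 and 0.954 at 4 h, 1.19, 1.33 and 1.55 at 6 h, 1.45 and 1.36 at 24 h, 1.80, 2.24 and 1.71 at 48 h, then 1.35 and 1.33 at 72 h. Each Hoxd1 library from 6 h on was above both untreated ones, with the 48 h libraries above the rest. Its change at 48 h was 0.88 ± 0.19 (edgeR, adjusted p = 0.0154). Hoxd8 had 0.947 and 0.850 FPKM at 0 h, 0.808 and 0.949 at 24 h, 1.52, 1.41 and 1.26 at 48 h, then 1.03 and 1.21 at 72 h, with a 48 h change of 0.64 ± 0.17 (0.0455). The 48 h libraries of Hoxd8 were above all others. Hoxd9 had 0.847 and 0.950 FPKM at 0 h and 1.49, 1.46 and 1.37 at 48 h, and its change of 0.67 ± 0.21 did not pass (edgeR, adjusted p = 0.0968). The body windows hold the start site too, so the TSS and body values of these short genes share reads.

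Neither call held for every choice of libraries. The count at 48 h was 0 when 0 h replicate 1 or 4 or 48 h replicate 2 was left out, and 1, Hoxd1, when 48 h replicate 1 or 3 was. By the F test Hoxd1 (edgeR, adjusted p = 0.0185) and Hoxd8 (0.0493) passed, against 7.81% of transcripts. Hoxd8 kept that call in 1 of the fits that left out a library, the one lacking 72 h replicate 1, where Hoxd9 passed too, and Hoxd1 lost it when 48 h replicate 2 was left out. At the other times 0 members passed by edgeR or DESeq2, with backgrounds of 0% at 2 h, 0.0188% at 4 h, 0.0691% at 6 h, 0.27% at 24 h and 4.52% at 72 h. An unadjusted edgeR p under 0.05 was found for 0, 0, 1, 1 and 1 members, and for 498, 1245, 2333, 4190 and 6045 of 31843 transcripts. Again 0 members passed by edgeR or DESeq2 from 6 to 24 h (0.0314%), from 24 to 48 h (1.52%) and from 48 to 72 h (0.00314%). Here 0, 4 and 2 members, and 2022, 5870 and 1959 of all transcripts, had an unadjusted edgeR p under 0.05. From 24 to 48 h the change of Hoxd8 was 0.69 ± 0.17 (edgeR, adjusted p = 0.0581), and it passed when 48 h replicate 2 was left out. At 72 h Hoxd9 passed when 72 h replicate 1 was left out.

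For Ser2p over the bodies 0 members passed the F test of edgeR or DESeq2, where 7.53% of 32123 transcripts did by edgeR. An unadjusted p under 0.05 in edgeR's F test was found for 2 members (Hoxd11 and Hoxd1) and for 7957 transcripts. At single times 1 gene passed, Hoxd11 at 24 h, where 3.99% of transcripts fell. Hoxd11 had 0.972 and 1.22 FPKM at 0 h, 1.16, 1.05 and 0.917 at 2 h, 0.718 and 0.849 at 24 h, then 0.843, 1.04 and 0.880 at 48 h. Its 24 h libraries were below the untreated ones, with a change of -0.52 ± 0.17 (edgeR, adjusted p = 0.0495). This call was lost when any 1 of the 4 libraries of these times was left out, and with DESeq2. Hoxd3, the long gene with the most reads, changed by -0.27 at 24 h (0.0570). Hoxd1, whose NTD body level rose, had 1.23 and 1.64 FPKM of Ser2p at 0 h, 0.893, 0.705 and 0.797 at 6 h, then 1.03, 1.16 and 1.46 at 48 h. The 48 h libraries overlapped the untreated ones, with a change of -0.27 ± 0.20 (edgeR, adjusted p = 0.512).

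The other Ser2p contrasts called 0 members by edgeR or DESeq2, against backgrounds of 0% at 2 h, 0% at 4 h, 0% at 6 h, 1.76% at 48 h and 1.62% at 72 h. An unadjusted edgeR p under 0.05 was found for 1, 5, 1, 2 and 2 members, and for 4365, 2976, 4424, 5570 and 5867 of 32123 transcripts. Between neighbouring times the backgrounds were 0.118% from 6 to 24 h, 1.91% from 24 to 48 h and 0% from 48 to 72 h, again with 0 members. Here 1, 0 and 0 members, and 4392, 7340 and 982 of all transcripts, had an unadjusted edgeR p under 0.05. In the model over both antibodies 0% of 32232 transcripts differed between Ser2p and NTD over bodies over all times, and 0% at 72 h, so this test made no call anywhere. At an unadjusted p under 0.05 it had 557 and 884 transcripts.

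**Figure D4:**
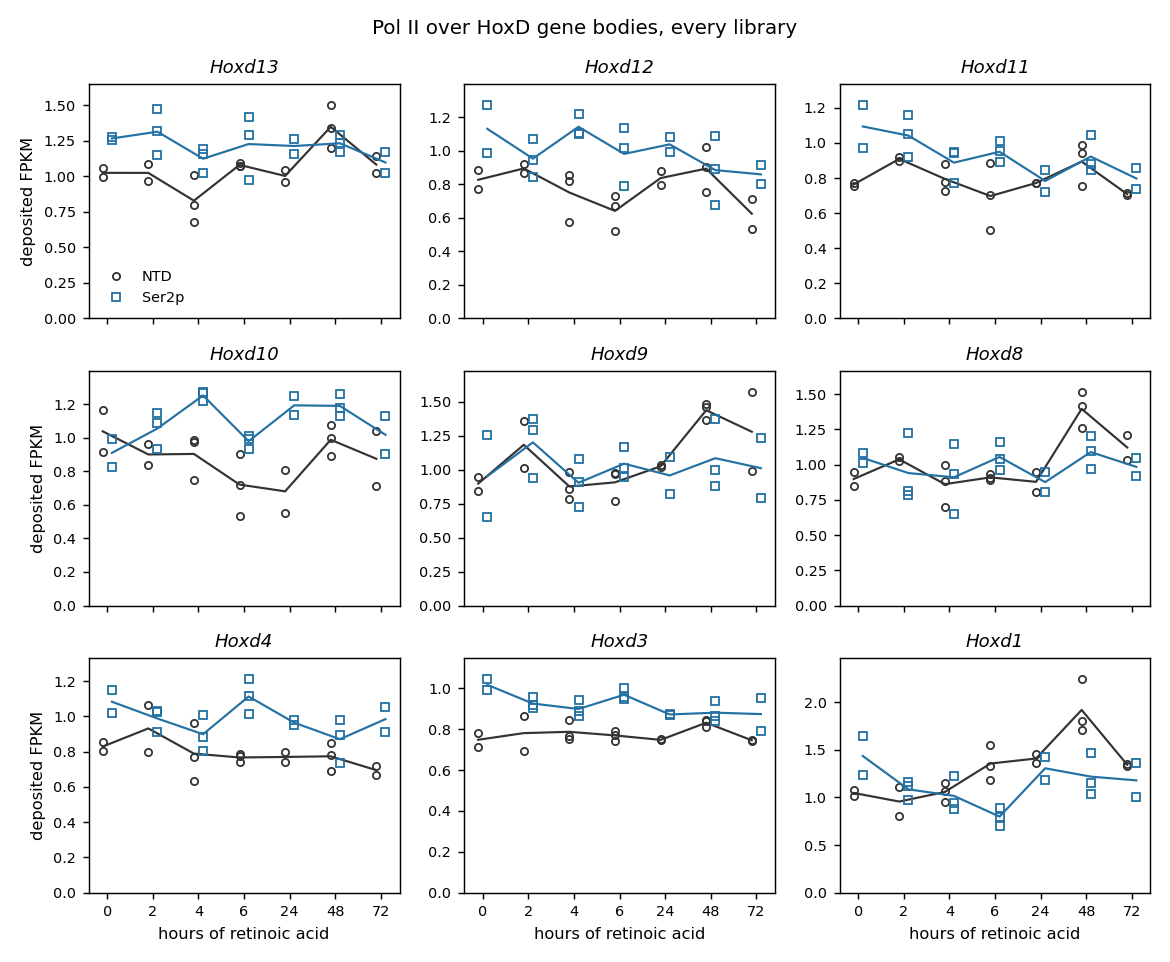
Deposited NTD and Ser2p levels over gene bodies (FPKM) of the 9 HoxD genes in every library (points) against hours of RA, spaced evenly, 1 panel per gene with its own scale, with lines through the means. NTD over Hoxd1 ran from 1.02 and 1.07 FPKM at 0 h to 1.71 to 2.24 FPKM at 48 h.

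Of the 12 transcripts 3 belong to Hoxd8. The 2 transcripts of Hoxd8 not used above had identical counts, and their NTD change at the TSS at 48 h was 1.40 (edgeR, adjusted p = 0.00309). In the model over both antibodies they passed with an adjusted p of 0.0427. Hoxd11 was read from a different transcript for Ser5p than for the other tables, since the one with the highest mean count differed. Its Ser5p to NTD ratio and its test over both antibodies use NM_008273 for both, so they do not rest on the NTD values of NR_073086. In that test NR_073086 gave an adjusted p of 1.00 over all times, where NM_008273 gave 0.0787. Ser5p of NR_073086 fell as well, by 1.74 on the log2 scale at 48 h (edgeR, adjusted p = 0.000195).

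Genes around the cluster were read from a list of 11 with data. Evx2, the homeobox gene next to Hoxd13, fell in Ser5p at 48 h from a mean of 48.4 CPM to 14 CPM, a change of -1.77 ± 0.32 (edgeR, adjusted p = 0.000192), close to that of Hoxd13. Mir10b, a microRNA gene inside the Hoxd4 span, fell by 0.88 on the log2 scale (edgeR, adjusted p = 0.0493), and Atf2, further out, rose by 0.67 (0.0434). In the fit lacking 0 h replicate 4 Evx2 changed by -1.26 (edgeR, adjusted p = 0.0456), and Mir10b (0.765) and Atf2 (0.332) did not pass. Haglr, at the other end, changed in Ser5p by -0.43 ± 0.27 (edgeR, adjusted p = 0.323) at 48 h, where its NTD rose. At 72 h its Ser5p fell by 1.04 on the log2 scale (edgeR, adjusted p = 0.0325), and with 0 h replicate 4 left out that did not pass (0.493). The remaining genes of the list, Lnpk among them, passed in neither direction at 48 h.

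Hox genes of the other clusters were read in the same way. At 48 h Ser5p fell at 19 of 30, with a median change of -1.04 beside -0.07 over all transcripts. With 0 h replicate 4 left out 1 fell (Hoxc12), with a median of -0.54. NTD at the TSS fell at 2 of 29 (Hoxb3 and Hoxb5), and the median over the 29 genes was 0.25.

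Known partners and inputs of Hox genes were read from the same fits. Of 12 regulators and cofactors, Ser5p fell at 2 at 48 h (Cdx2 and Pknox2), and with 0 h replicate 4 left out at 1 (Cdx2). NTD at the TSS fell at 0 of them, with a median change of 0.87. Of 6 genes that respond to RA, NTD rose at 4 (Rarb, Cyp26a1, Stra8 and Dhrs3), with 2.90 for Rarb on the log2 scale. Of 16 Polycomb and Trithorax genes NTD fell at 2 (Cbx7 and Suz12).

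Markers of ES cells and of other cell types were read in the same way. Of the ES cell markers 4 of 8 fell in Ser5p at 48 h (Pou5f1, Sox2, Utf1 and Zfp42), where 5.37% of all transcripts fell. The summed Ser5p level of the list went from 522 to 588 CPM at 0 h to 368 to 455 CPM at 48 h. NTD at the TSS fell at the same 4 markers. Ser5p fell at 4 of 6 primitive endoderm markers (149 to 247 CPM summed at 0 h, 102 to 145 at 48 h), 3 of 6 neural markers (144 to 230, then 118 to 136) and 2 of 5 mesoderm markers (111 to 163, then 75.6 to 82.9). NTD rose at 1 of 6 primitive endoderm markers at 48 h, Col4a1, and fell at 0. Of the 6 neural markers NTD rose at Nes and fell at Tubb3, and of the 5 mesoderm markers 0 changed. Over all 31868 transcripts NTD rose at 1486 and fell at 1567. Of 7 fibroblast markers 0 changed with either antibody at the TSS, with 41.1 to 52.7 CPM of NTD summed at 0 h and 37.9 to 57.7 at 48 h. When 0 h replicate 4 was left out, Ser5p fell at 2 ES cell markers, 1 primitive endoderm marker, 0 neural and 0 mesoderm markers. No marker was at 0 reads, and the part of these changes in the HoxD result was not tested.

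For each table the genes most like 1 member across libraries were found by Pearson's r of log2 CPM. These are descriptions over libraries that share time and depth. For Ser5p at Hoxd13 they were Pcdh7 (0.952), T (0.950), the mesoderm factor Brachyury, and Zfp467 (0.949), over 18 libraries. For NTD at the TSS of Hoxd9 they were Zfp352 (0.864), Lrrc15 (0.843) and Gstm5 (0.843), over 17. For the bodies of Hoxd1 they were Wipi1 (0.889), Zfp703 (0.860) and Rsg1 (0.849) with NTD, and Cpz (0.738), Atp5h (0.722) and Hexa (0.720) with Ser2p.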

How the data were processed

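ChIP-seq libraries of NTD (17), Ser5p (18) and Ser2p (18) were grouped by antibody and hours of RA from the labels. Since no label says that replicates came from separate cultures, p-values reflect sample-to-sample spread only, and that spread may be technical. The builds mm10 and dm6 and the tools MACS2, Bowtie2, DESeq2 and SAMtools are named, without versions, per the submitters' processing notes. For the counting step, tool and strand setting are not stated in the sources used. The authors deposited raw read counts per RefSeq transcript, a normalized signal (the raw count times 1 factor per library) and, over gene bodies, FPKM. The deposited tables also hold the authors' log2 changes against 0 h, their adjusted p-values and an hour of first increase. Summed counts per library ran from 1088160 to 3210580 (NTD, TSS), 1504740 to 3347830 (Ser5p, TSS), 11684900 to 25696400 (NTD, bodies) and 18045700 to 28745700 (Ser2p, bodies). Rows without a gene symbol held 0.0166% to 0.0761% of the counts.

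The raw counts were fitted with edgeR 4.0.16 in R 4.3.3 (TMM, filterByExpr, quasi-likelihood test, time as a factor, all libraries of a table), adjusted by Benjamini-Hochberg over all transcripts with a threshold of 0.05. The standard error is the log2 change divided by the root of F. For the interaction, libraries of both antibodies were fitted together. A gene is read from its transcript with the highest mean count, all 9 genes are named in every table, and listed genes are named where they passed. For the likeness, genes of at least 1 CPM were compared, with a prior count of 2. The members and lists were chosen with earlier results of these data known. Alternatives were DESeq2 1.42.0, the authors' factors, no filter, a replicate block, any transcript, and leaving out libraries. The gene lists were also recounted for Ser5p without each 0 h library, a choice made after seeing the data. The fits were tested on simulated counts. No pair of libraries was a duplicate: the smallest chi-square per degree of freedom between libraries of a group was 1.30. Samples of the series with other antibodies were not analysed here. Some genes of the lists are not reported here.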

Additional observations from a re-analysis of the deposited data

Results flagged for a closer look

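The time courses of Ser5p and of total Pol II at the TSS differed for 2 members, by the test of the interaction of antibody and time over all times. For Hoxd13 the adjusted p was 0.0177, and for Hoxd9 it was 0.0422 (edgeR's quasi-likelihood test, Benjamini-Hochberg over 32820 transcripts). At 48 h Ser5p had changed by -1.79 and NTD by 1.07 at Hoxd13, and by -1.14 and 1.05 at Hoxd9. Neither gene passed without the untreated replicate 4 of either antibody, nor with the replicate number as a block.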

How the results depend on the processing

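Counts of called HoxD genes moved by more than 1.5 times in these cases, and no called change turned its direction under any alternative. With DESeq2 the NTD TSS count over all times went from 3 to 1, at 48 h from 4 to 1 and at 72 h from 1 to 0, the Ser5p count over all times from 7 to 4 and at 24 h from 3 to 0, the NTD body counts over all times and at 48 h each from 2 to 1, and the Ser2p count at 24 h from 1 to 0. With the authors' factors the Ser5p count at 24 h went to 1, the NTD body count over all times to 1, the Ser2p count at 24 h to 0 and the interaction count at 72 h from 0 to 2. Those factors moved the median log2 change of all transcripts at 48 h from -0.03 to 0.20 for NTD and from -0.07 to 0.23 for Ser5p at the TSS, and at 24 h to 0.38 and 0.40. Without the low-count filter the NTD body counts were 1 and 1, the Ser2p count at 24 h was 0 and the interaction count at 72 h was 1. With any transcript of a gene, 1 gene passed for NTD at the TSS from 24 to 48 h.

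The labels do not tie replicate numbers to a batch, so the main fits did not pair the samples by them. Of same-number pairs, 18 of 32 correlated over 0.1 in NTD at the TSS, 18 of 37 in Ser5p, 26 of 32 in NTD bodies and 17 of 37 in Ser2p. Among pairs with different numbers it was 15 of 91, 21 of 101, 24 of 91 and 33 of 101, smaller shares. Same-number libraries thus tended to be more alike, as a hint from the data and not the design. With the replicate block the counts were 1 for NTD at the TSS at 48 h, 3 for Ser5p over all times, 1 at 6 h (from 0), 0 at 24 h and 3 at 48 h, 0 for NTD bodies over all times and 1 at 48 h, 0 for Ser2p at 24 h and 0 for the interaction.

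Leaving out 0 h replicate 4 and 72 h replicate 3 together gave 1 (48 h), 0 (72 h) and 1 (48 against 24 h) for NTD at the TSS, 3 (all times), 0 (24 h), 1 (48 h) and 0 (72 h) for Ser5p, 1 (all times), 0 (48 h) and 1 (48 against 24 h) for NTD bodies, 0 for Ser2p at 24 h and, for the interaction with these NTD libraries out, 0. Leaving out 1 library at a time gave ranges of 1 to 3 (all times), 1 to 3 (48 h) and 0 to 1 (72 h) for NTD at the TSS. For Ser5p they were 4 to 8 (all times), 0 to 3 (4 h), 0 to 4 (6 h), 0 to 5 (24 h), 1 to 7 (48 h) and 0 to 7 (72 h). For NTD bodies they were 0 to 3 (all times), 0 to 1 (48 h), 0 to 1 (72 h) and 0 to 1 (48 against 24 h), for Ser2p at 24 h 0 to 0, and for the interaction 0 to 3 (all times) and 0 to 5 (72 h). The cause was not tested. Member medians of 12 to 23 NTD reads at the TSS limit the precision there.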
